A study of Mus musculus with 30 samples.

Results

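The constitutive proteasome was followed in single mouse muscle fibres whose mitochondrial calcium uniporter gene, Mcu, had been overexpressed or silenced. Its genes were taken by name, as every non-control array probe whose gene symbol reads Psma, Psmb, Psmc, Psmd, Psme, Psmf or Psmg followed by a digit, leaving out the immunoproteasome subunits Psmb8, Psmb9 and Psmb10. That gave 46 genes on 58 probes, out of 35440 genes on 55681 probes, and 44 of the 46 were among the 23341 genes tested. The choice rested on names and used no measured value, but it was made with earlier results of these data known. Of the 46, Psmb11, the thymus-specific beta subunit, and Psma8, the testis-specific alpha subunit, stood clear of background on 0 of 30 arrays and so went untested. Of the 44 tested genes, 43 were well above background on all 30 arrays, and Psmc3ip on 29.

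The proteasome is the protease that degrades proteins tagged with ubiquitin. Its barrel-shaped core particle has outer rings of alpha subunits, which gate entry, and inner rings of beta subunits, of which Psmb5, Psmb6 and Psmb7 carry the cutting sites. A regulatory particle caps the barrel: its base holds the ATPases that unfold substrates and its lid holds the deubiquitinase Psmd14, while the activators Psme1 to Psme4 can bind the barrel in its place. In muscle this system degrades myofibrillar proteins, and its genes are known to be raised together in many forms of atrophy. Interferon signalling replaces the cutting beta subunits with Psmb8, Psmb9 and Psmb10 and raises Psme1 and Psme2, which together form the activator PA28.

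Male CD1 mice, 8 weeks old, gave the 30 fibres, all dissected from a fast muscle of the hindlimb, the extensor digitorum longus (EDL). Adeno-associated virus (AAV) was injected into the muscle and fibres were taken 7 or 14 days later, each fibre giving 1 single-colour array. MCU-vector fibres (AAVMCU; 3 at day 7 and 4 at day 14) were set against wild-type fibres that received no virus (4 at each day). MCU-silenced fibres (AAVshMCU; 3 at day 7 and 4 at day 14) were set against transfected-control fibres (4 at each day), whose titles read AAVshLuc while their other labels describe a vector without an insert. Because wild-type fibres carried no virus, the first comparison contains the vector as well as MCU. The promoters of the vectors are not given in the sources used here. Injected fibres were picked for green fluorescence and kept only if a PCR test had shown the intended change of MCU. No label ties fibres to animals, so every p-value measures the spread between fibres, some of which may share a mouse.

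Each level below is the log2 of the processed signal minus the array's 75th percentile, so a level of 0 is that percentile and levels of different probes are not compared. A gene was called when its limma p-value, adjusted by Benjamini-Hochberg over all 23341 genes, was below 0.05. Arrays had between 49.4% and 59.5% of probes well above background, a 75th percentile of 83.2 to 138 signal units, and correlations of 0.951 to 0.984 within groups. Each comparison of a vector with its control lay within 1 slide per day, while no slide held both kinds of control fibre. Of 9 fast-fibre markers, 8 were well above background on every array, with Myh2 the exception. All 4 slow-fibre markers were above background on some arrays of every group. Their summed linear level reached 42.3 in transfected-control fibres of day 7, where the fast list summed to 2250 to 2752. The fast sum was as low as 1275 in silenced fibres of day 14. The erythroid marker Hba-a1, the endothelial marker Kdr and the fibroblast marker Col1a2 were above background on every array. The satellite-cell markers Pax7 and Myf5 were above background on no array, apart from Pax7 on some arrays of transfected-control fibres of day 7.

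Mcu itself, whose change had been used to select fibres, had levels of 3.60, 3.13 and 3.09 in MCU-vector fibres of day 7, against 2.73, 2.47, 2.55 and 2.92 in wild-type fibres. At day 14 it had 6.37, 5.87, 6.66 and 6.54 in MCU-vector fibres, against 2.79, 2.15, 2.52 and 2.37 in wild-type fibres. The overexpression at day 7 was therefore small in these arrays, 0.60 with an adjusted p of 0.999 in limma, and was 3.90 at day 14. In silenced fibres of day 7 Mcu had levels of 1.28, −0.60 and 0.78, against 2.65, 2.30, 2.31 and 3.02 in transfected-control fibres. At day 14 it had −1.15, −0.01, −1.69 and 0.75 in silenced fibres, against 2.33, 2.65, 2.80 and 2.40 in transfected-control fibres. All silenced fibres lay below all of their controls.

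The sequences on which the called genes rest are the following 60-base probes, given 5′ to 3′ without capitals, with coordinates in mouse build mm9. Psme2 encodes the beta subunit of PA28 and has 3 probes, of which the first represents the gene here because its signal was highest. Psmc3ip is caught by the naming rule but is not a subunit: its product binds the ATPase Psmc3 and is known as a factor of meiotic recombination.
Psme2 probe 1, chr14:56206296-56206355, minus strand: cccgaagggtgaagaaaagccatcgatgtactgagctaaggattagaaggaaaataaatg
Psme2 probe 2, chr14:56208888-56209346, minus strand: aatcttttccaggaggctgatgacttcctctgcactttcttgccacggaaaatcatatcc
Psme2 probe 3, chr11:48759630-48759689, minus strand: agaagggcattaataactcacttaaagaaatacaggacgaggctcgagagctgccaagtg
Psmc3ip probe, chr11:100954219-100954278, minus strand: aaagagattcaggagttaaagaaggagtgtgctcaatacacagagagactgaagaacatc
The third Psme2 probe is placed on chromosome 11, where RefSeq annotates a second copy, Psme2b, so signal from Psme2 and Psme2b cannot be told apart. The labelling protocol used random primers on amplified cDNA and did not keep the strand.

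No core or regulatory gene of MCU-vector fibres differed from wild type beyond the spread between fibres by the adjusted test. Over both days 1 of 44 proteasome genes was called higher, the activator Psme2, and 0 were called lower. Among all genes 0.835% were called higher and 0.291% lower. None of the 14 core genes and none of the 17 regulatory genes passed the threshold by limma, and at an unadjusted p below 0.05 the counts were 3 core and 2 regulatory genes higher and 0 lower, against 6.02% of all genes higher and 7.08% lower.

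**Figure D1:**
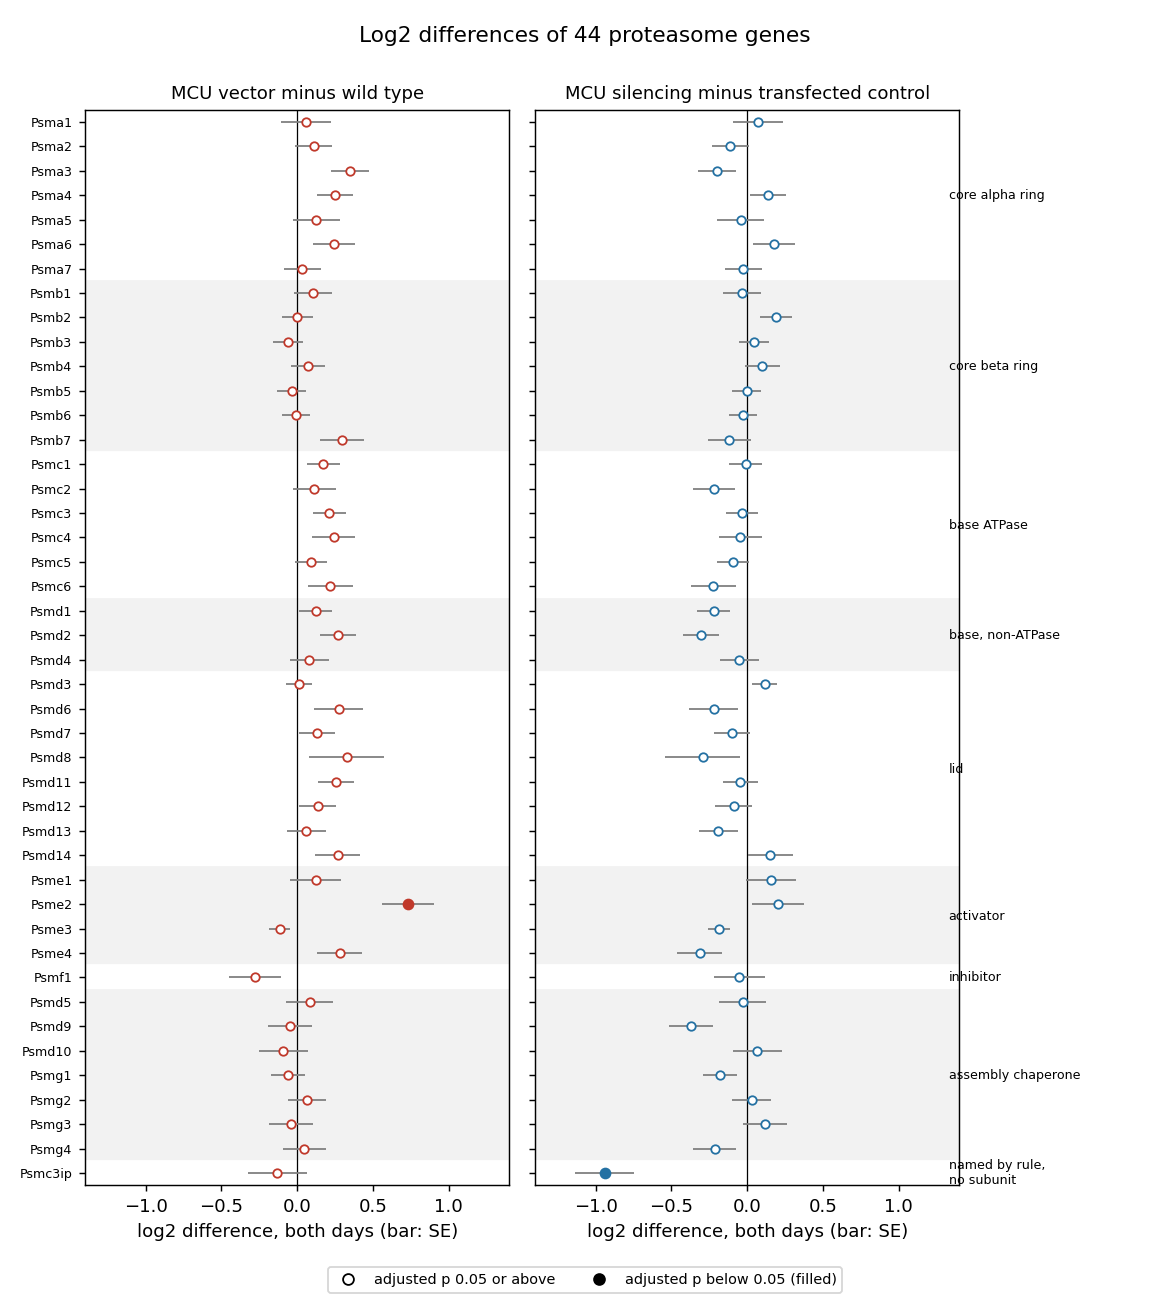
Fitted log2 differences of the 44 tested genes over both days, MCU vector minus wild type on the left and MCU silencing minus transfected control on the right, with standard errors as bars. Filled points passed the adjusted threshold: Psme2 at 0.73 on the left and Psmc3ip at −0.94 on the right.

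All 17 regulatory genes had positive fitted differences with the MCU vector, with 16 of 17 under normexp background correction, a percentile over probes detected on every array or the detected share as a covariate, and their median was 0.17. Among all genes tested 45.5% had a positive difference and the median was −0.02. The core particle had 10 of 14 positive with a median of 0.09. Median scaling gave 13 of 14 with a median of 0.13, and leaving out 1 fibre at a time gave 8 to 13. Its alpha ring was positive at 7 of 7 and its beta ring at 3 of 7. The assembly chaperones (Psmd5, Psmd9, Psmd10 and Psmg1 to Psmg4), which help put the particle together and do not stay in it, were positive at 3 of 7 with a median of −0.04. Subunits rise and fall together between fibres, as the correlations below show, so 17 genes of one sign are not 17 independent observations. The lean was not particular to the MCU vector. Leaving out 1 fibre at a time, transfected control minus wild type gave regulatory medians of 0.10 to 0.19 and core medians of 0.09 to 0.21. The MCU vector gave 0.13 to 0.23 and 0.01 to 0.15 in such fits. No slide held both transfected-control and wild-type fibres.

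Among regulatory genes the differences closest to the threshold with the MCU vector were those of Psmd2, Psmd11 and Psmc3. Psmd2, a large scaffold of the base that receives ubiquitin carriers, had levels of 5.10, 5.29 and 5.28 in MCU-vector fibres of day 7, against 5.05, 5.29, 4.79 and 5.03 in wild-type fibres. At day 14 Psmd2 had 5.13, 5.40, 5.41 and 5.45 in MCU-vector fibres, against 4.85, 5.42, 4.82 and 4.89 in wild-type fibres. One wild-type fibre of day 14 thus stood with the MCU-vector fibres, the groups overlapped, and the difference was 0.27 (adjusted p 0.322 in limma). Psmd11, a lid subunit, had 3.32, 3.36 and 3.20 in MCU-vector fibres of day 7 against 2.93, 3.27, 2.90 and 3.24 in wild-type fibres. At day 14 it had 3.33, 3.39, 3.45 and 3.35 against 2.89, 3.39, 2.76 and 3.28 in wild-type fibres, with overlap on both days and a difference of 0.25 (adjusted p 0.355 in limma). Psmc3, an ATPase of the base, had a difference of 0.21 (adjusted p 0.397 in limma), with 6.08, 6.22 and 6.40 in MCU-vector fibres of day 7 against 6.20, 6.21, 5.87 and 6.06 in wild-type fibres. Its levels at day 14 were 6.36, 6.21, 6.46 and 6.53 in MCU-vector fibres, against 5.98, 6.47, 5.91 and 6.11 in wild-type fibres.

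In the core particle the same comparison came closest to the threshold for Psma3, Psma4 and Psmb7. The alpha-ring subunit Psma3 had levels of 5.33, 5.45 and 5.36 in MCU-vector fibres of day 7, against 5.24, 5.19, 4.66 and 5.06 in wild-type fibres. These 3 fibres lay above all 4 controls. At day 7 that held for 2 of 44 genes, Psma3 and Psme2, and 0 lay below, against 4.08% and 4.01% of all genes. At day 14 Psma3 had 5.41, 5.33, 5.56 and 5.67 in MCU-vector fibres and 4.85, 5.61, 4.90 and 5.20 in wild-type fibres. Those overlapped, and the difference over both days was 0.35 (adjusted p 0.205 in limma). Psma4, another alpha subunit, ranged from 3.12 to 3.51 in the 7 MCU-vector fibres and from 2.74 to 3.42 in the 8 wild-type fibres, a difference of 0.25 (adjusted p 0.363 in limma). Psmb7, which carries a trypsin-like cutting site, ranged from 5.27 to 5.69 in MCU-vector fibres and from 4.56 to 5.76 in wild-type fibres, a difference of 0.30 (adjusted p 0.375 in limma). Psmb5, the subunit that proteasome inhibitors such as bortezomib bind, differed by −0.04 (adjusted p 0.906 in limma).

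**Figure D2:**
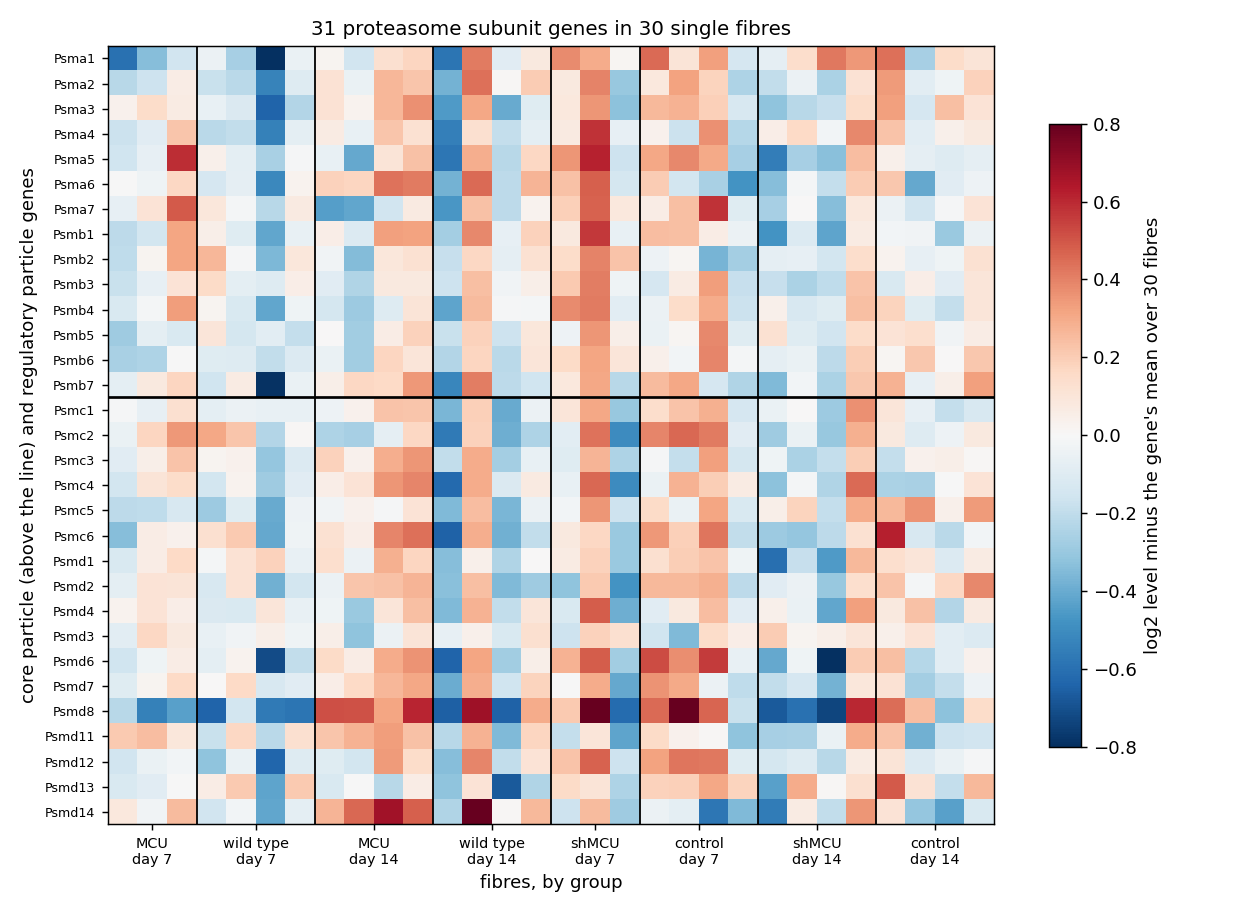
Each row is a core or regulatory gene and each column a fibre, grouped by vector and day, with colour giving the level minus the gene's mean over the 30 fibres, on the log2 scale. Columns tend to be of one colour over many genes, and the 4 wild-type fibres of day 14 differ among themselves.

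The exception was Psme2, which was higher in MCU-vector fibres of day 7. Its levels there were 3.36, 3.50 and 4.08, with a mean of 3.65 ± 0.38 (SD), against 2.54, 2.14, 2.18 and 2.49 in wild-type fibres, with a mean of 2.34 ± 0.21 (SD). All 3 MCU-vector fibres lay above all 4 controls, and the difference was 1.31 ± 0.25 (SE), or 2.48-fold (adjusted p 0.00485 in limma, with 0.540% of all genes called higher at day 7 and 0.0343% lower). At day 14 Psme2 had 2.51, 2.10, 2.67 and 2.50 in MCU-vector fibres, against 2.17, 2.48, 2.14 and 2.34 in wild-type fibres. Here the groups overlapped and the difference was 0.16 (adjusted p 0.850 in limma). At day 14, 0 of 44 genes were called in either direction, against 0.330% of all genes higher and 0.0985% lower; at an unadjusted p below 0.05, 1 core and 2 regulatory genes were higher and 0 lower, against 5.38% and 5.99% of all genes. Over both days Psme2 was higher by 0.73 ± 0.17 (SE; adjusted p 0.0291 in limma).

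The size of the Psme2 rise rested partly on 1 fibre. Without MCU-vector replicate 3 of day 7, the highest of its group, the difference at day 7 was 1.09 and its adjusted p 0.102 in limma. The call over both days was lost in 9 of 15 fits that left out 1 fibre, with differences between 0.63 and 0.81. The change in the difference from day 7 to day 14 was −1.15 and was not called for probe 1 (adjusted p 0.477 in limma). With the 3 probes averaged it was −1.29 and was called (adjusted p 0.0119 in limma), while 0.0171% of all genes were called higher and 0.184% lower in that contrast.

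All 3 Psme2 probes gave the day 7 rise. Probe 2 had levels of 2.85, 3.17 and 3.59 in MCU-vector fibres of day 7 and 2.08, 1.82, 1.65 and 2.12 in wild-type fibres, a difference of 1.28. Probe 3, on chromosome 11, had 2.11, 2.61 and 2.75 in MCU-vector fibres and 0.85, 0.78, 0.56 and 0.58 in wild-type fibres, a difference of 1.80. In neither probe did the groups overlap, and adjusted p-values over all probes kept were 6.15e-04 and 1.01e-05 in limma. At day 14 probes 2 and 3 differed by 0.12 and 0.23.

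**Figure D3:**
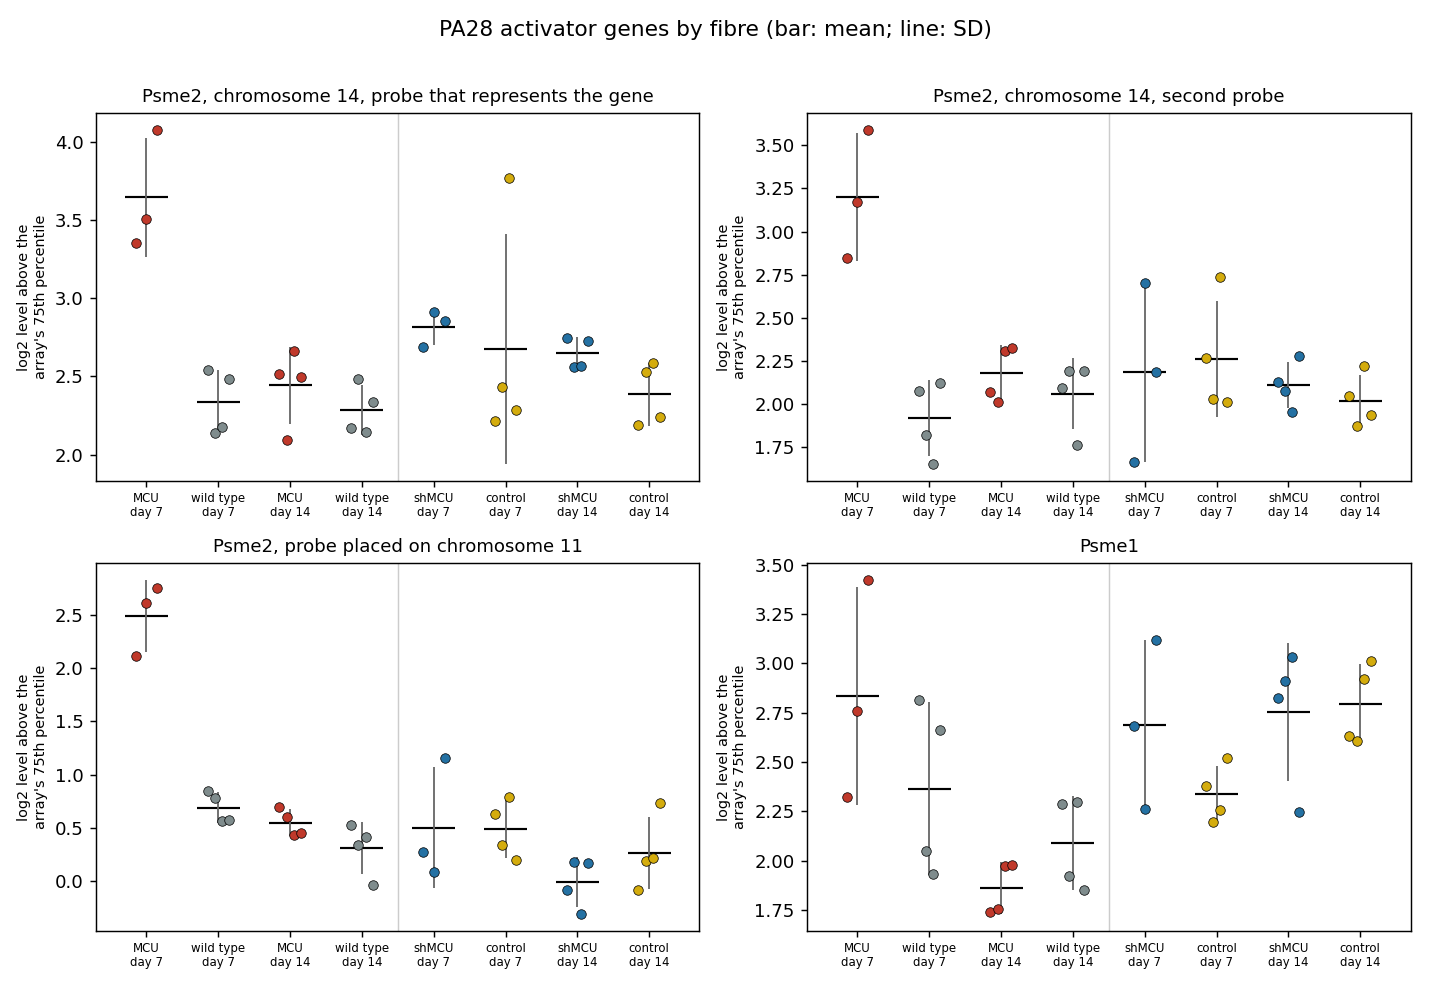
Levels of the 3 Psme2 probes and of Psme1 in every fibre, by group, are on the log2 scale relative to the array's 75th percentile. Bars mark the group means. For each Psme2 probe the 3 MCU-vector fibres of day 7 lie above the 4 wild-type fibres, while for Psme1 these groups overlap. In the panel of Psme2 probe 1, 1 transfected-control fibre of day 7 stands high at 3.77.

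The immunoproteasome, which the naming rule leaves out, moved with Psme2. Psmb9 had levels of 1.76, 2.12 and 3.09 in MCU-vector fibres of day 7, against −0.24, −0.56, 0.07 and −0.37 in wild-type fibres. Psmb10 reached 4.24 in MCU-vector fibres and 2.28 in wild-type fibres, a difference of 1.49. Neither gene's groups overlapped, and all 3 of 3 immunoproteasome genes were called higher at day 7 and 0 of 3 at day 14. Of 15 tested interferon-response genes, 11 were called higher at day 7 with a median difference of 3.57. Tap1, among the 11, was well above background on only 4 arrays and on no wild-type array. It entered the test through the MCU-vector fibres of day 7. Its difference of 3.51 is therefore set against background signal, and its call is not independent of the filter. The interferon list was chosen with earlier results of these data known. The summed linear level of the interferon list was 157 to 267 in MCU-vector fibres of day 7 against 11.0 to 15.7 in wild-type fibres. At day 14 it was 26.2 to 34.3 against 9.78 to 11.6. Psme1, the partner subunit in PA28, had 2.32, 2.76 and 3.42 in MCU-vector fibres of day 7 against 2.81, 2.05, 1.93 and 2.66 in wild-type fibres, so its groups overlapped. At day 14 Psme1 had 1.74, 1.76, 1.97 and 1.98 in MCU-vector fibres, against 2.29, 1.92, 2.30 and 1.85 in wild-type fibres, and overlapped. Its group mean was thus higher than wild type at day 7 and lower at day 14. The difference of Psme1 over both days, 0.12 (adjusted p 0.806 in limma), averages these opposite directions. Summed leukocyte markers overlapped at day 7, at 25.9 to 28.3 in MCU-vector fibres and 25.3 to 28.1 in wild-type fibres, with 0 of 6 tested markers called. The part that MCU, the virus and interferon signalling play in these differences was not tested.

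**Figure D4:**
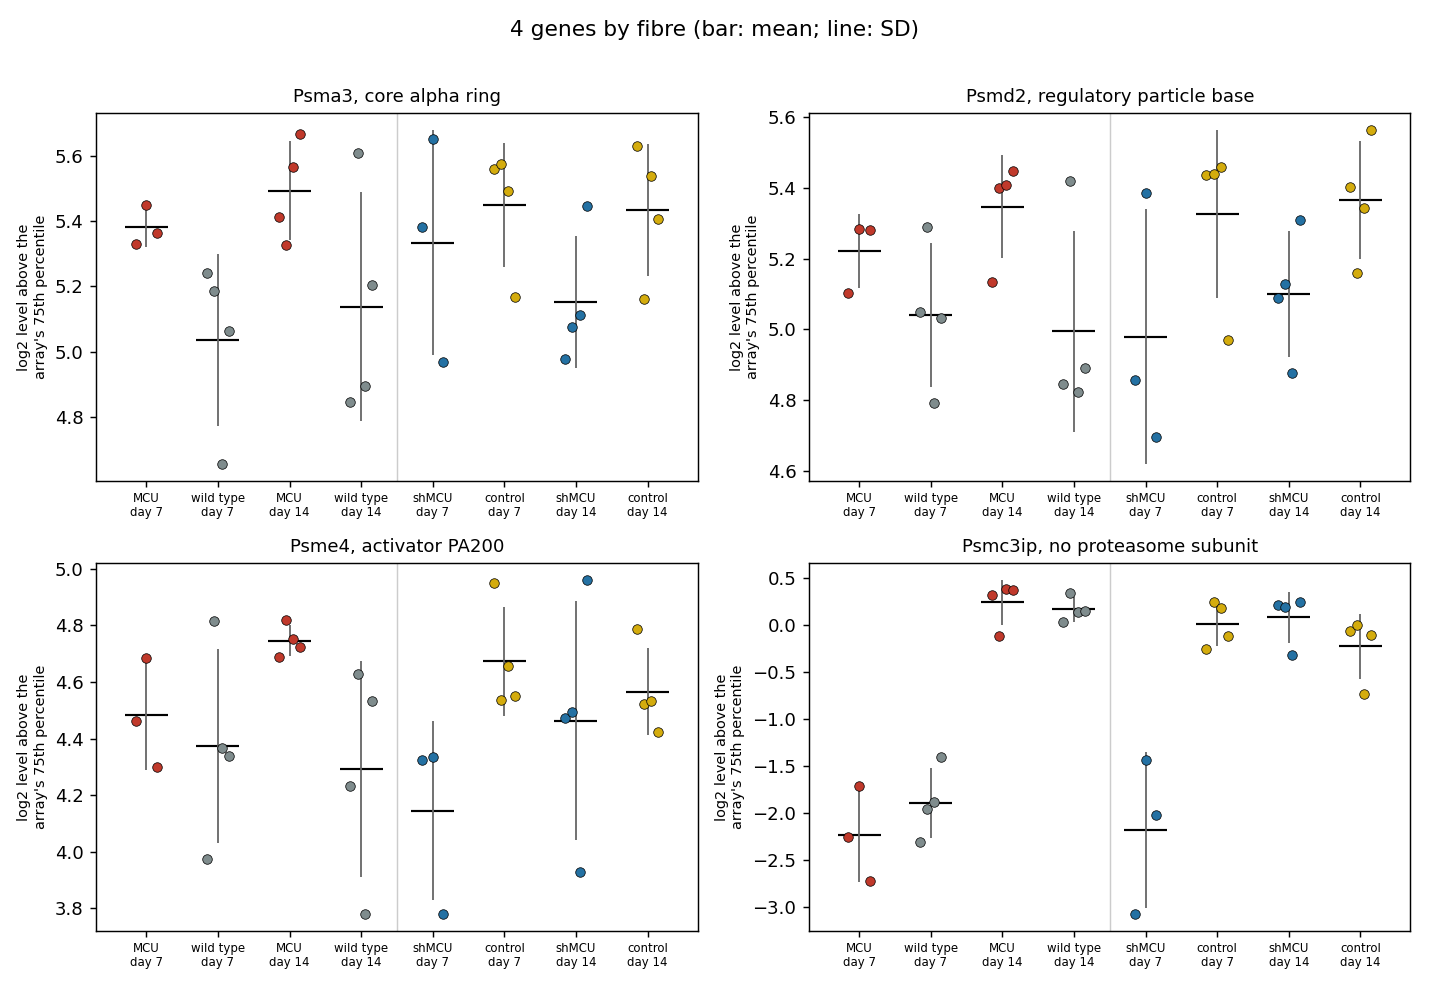
Levels of Psma3, Psmd2, Psme4 and Psmc3ip in every fibre, by group, are on the log2 scale relative to the array's 75th percentile. Bars mark the group means. Psmc3ip, which is not a proteasome subunit, is low in the 3 silenced fibres of day 7 and in the wild-type and MCU-vector fibres of day 7.

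The promoters of the PA28 genes are shown because both lie on chromosome 14 and Psme2 was called while Psme1 was not; the difference between them was not tested. They span 250 bases before to 50 after the RefSeq start in build GRCm38.p6. The core of the interferon-stimulated response element, GAAA, any 2 bases and GAAA again, was searched on both strands, and a match is in capitals.
Psme1 promoter, chr14:55578244-55578543, plus strand: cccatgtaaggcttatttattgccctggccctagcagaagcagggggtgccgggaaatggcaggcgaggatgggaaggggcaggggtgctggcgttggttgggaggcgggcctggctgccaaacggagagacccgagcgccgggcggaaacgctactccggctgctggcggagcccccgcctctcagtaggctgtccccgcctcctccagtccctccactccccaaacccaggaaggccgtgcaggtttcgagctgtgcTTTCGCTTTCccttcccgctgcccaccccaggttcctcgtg
Psme2 promoter, chr14:55591052-55591351, minus strand: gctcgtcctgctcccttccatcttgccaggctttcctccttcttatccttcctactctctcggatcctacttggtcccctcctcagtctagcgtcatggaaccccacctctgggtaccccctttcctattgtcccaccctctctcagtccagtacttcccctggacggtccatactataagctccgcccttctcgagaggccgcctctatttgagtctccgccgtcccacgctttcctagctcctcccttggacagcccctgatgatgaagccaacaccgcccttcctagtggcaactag
Psme1 holds 1 match, which starts 10 bases after the start, and Psme2 holds none in this window. RefSeq promoters were found for 38 of the 46 genes, in 41 windows. The interferon letters occurred in 5 of those 41 windows (12.2%) and in 3.44% of all 32851 windows. Among windows of core and regulatory genes they occurred in 2 of 28 (7.14%). The letters TGACNNNGC of the antioxidant response element occurred in 14.6% of the 41 windows and in 12.4% of all windows. CCAAT boxes occurred in 34.1% and 37.4%, and GGGCGG boxes in 56.1% and 35.7%.

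Silencing of Mcu called no core or regulatory gene. Over both days 1 of 44 genes was called lower, Psmc3ip, and 0 higher, while 8.00% of all genes were called higher and 6.11% lower. At an unadjusted p below 0.05, 0 proteasome genes were higher and 5 lower, against 17.6% and 12.4% of all genes. By limma, 0 of 14 core genes and 0 of 17 regulatory genes passed. Fitted differences were negative in 15 of 17 regulatory genes, with a median of −0.09, and in 44.5% of all genes, with a median of 0.04. The negative count was 10 of 17 under a percentile over probes detected on every array and 12 of 17 in the submitters' processed values. It was also 10 of 17 without silenced replicate 3 of day 7. With the myosin genes Myh4 and Myh1 as covariates the direction turned, to 11 of 17 positive and a median of 0.06. The core particle had 6 of 14 positive with a median of −0.02, and its direction changed with the setting. Median scaling gave 3 of 14 positive and −0.14, the percentile over detected probes 11 of 14 and 0.06, the submitters' values 9 of 14 and 0.02, and the myosin covariates 13 of 14 and 0.10.

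Psmd2 came nearest to a call among the subunits. It had levels of 4.86, 5.39 and 4.70 in silenced fibres of day 7, against 5.44, 5.44, 5.46 and 4.97 in transfected-control fibres, and 5.09, 5.13, 4.88 and 5.31 against 5.40, 5.16, 5.34 and 5.56 at day 14. The groups overlapped on both days, with a difference of −0.31 (adjusted p 0.0810 in limma). It was called under median scaling (−0.43) and under normexp correction (−0.37). Psma3 differed by −0.20 (adjusted p 0.302 in limma), and had 5.38, 5.65 and 4.97 in silenced fibres of day 7 against 5.56, 5.57, 5.49 and 5.17 in transfected-control fibres. Of the core genes that leaned the other way, Psmb2 had 5.25, 5.50 and 5.33 in silenced fibres of day 7, above all of 5.06, 5.12, 4.73 and 4.83 in transfected-control fibres. At day 14 it had 5.03, 5.04, 4.96 and 5.24 against 5.13, 5.04, 5.06 and 5.22. Its difference at day 7 was 0.43 (adjusted p 0.0599 in limma) and over both days 0.19 (adjusted p 0.217 in limma). Psma6, of the alpha ring, ranged from 4.21 to 5.03 in silenced fibres and from 4.08 to 4.77 in transfected-control fibres, a difference of 0.18 (adjusted p 0.409 in limma).

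Among the other members Psme3, the nuclear activator PA28 gamma, ranged from 5.78 to 6.38 in silenced fibres and from 6.04 to 6.49 in transfected-control fibres, with a difference of −0.19 (adjusted p 0.0810 in limma). Median scaling and normexp correction called it lower. Psme4, the activator PA200, which binds the core without ATPases, had 4.32, 4.33 and 3.78 in silenced fibres of day 7 and 4.95, 4.54, 4.66 and 4.55 in transfected-control fibres. These did not overlap at day 7, and the difference there was −0.53 (adjusted p 0.105 in limma). At day 14 Psme4 had 4.47, 4.49, 3.93 and 4.96 in silenced fibres and 4.79, 4.52, 4.53 and 4.42 in transfected-control fibres, and overlapped. With the MCU vector Psme4 had 4.69, 4.82, 4.75 and 4.72 at day 14, above 4.23, 4.63, 3.78 and 4.53 in wild-type fibres. That difference was 0.45 (adjusted p 0.387 in limma), and Psme4 was the 1 of 44 genes without overlap at day 14, against 3.92% of all genes above and 4.36% below their controls. Psmd9, an assembly chaperone of the base, ranged from −1.87 to −0.56 in silenced fibres and from −1.12 to −0.72 in transfected-control fibres, a difference of −0.37 (adjusted p 0.0879 in limma), and was called under median scaling (−0.49). Psme2, called with the MCU vector, had 2.69, 2.91 and 2.85 in silenced fibres of day 7 against 2.22, 2.43, 3.77 and 2.28 in transfected-control fibres. Its difference under silencing over both days was 0.20 (adjusted p 0.449 in limma). In silenced fibres of day 7, 1 of 44 genes lay above all its controls (Psmb2) and 4 below (Psmd13, Psme4, Psmg4 and Psmc3ip), against 13.6% and 8.21% of all genes. The count was 0 of 44 in either direction at day 14, against 4.28% and 4.81%. Pooling both days, 0 of 44 genes were without overlap under silencing, against 0.827% and 1.22%, and 0 with the MCU vector, against 0.630% and 0.557%.

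Psmc3ip was the called gene of the silencing comparison, with a difference of −0.94 ± 0.19 (SE; adjusted p 0.00257 in limma) over both days, and the difference lay at day 7. Its levels were −3.08, −1.44 and −2.03 in silenced fibres of day 7, against −0.26, 0.24, 0.18 and −0.12 in transfected-control fibres. All 3 lay below all 4 controls, and the difference was −2.19 ± 0.29 (SE; adjusted p 2.86e-05 in limma, with 8.28% of all genes called higher and 5.17% lower). The probe was well above background in 2 of the 3 silenced fibres, and with normexp background correction the difference was −0.83. At day 14 Psmc3ip had 0.20, 0.19, −0.33 and 0.24 in silenced fibres, against −0.07, −0.01, −0.74 and −0.11 in transfected-control fibres. They overlapped, with a difference of 0.31 (adjusted p 0.561 in limma), and 0 of 44 genes were called at day 14, against 1.54% of all genes higher and 1.92% lower. The difference between the days was 2.50 and was called (adjusted p 3.47e-04 in limma, with 1.38% of all genes called higher and 2.75% lower). Leaving out any 1 fibre kept all 3 of these calls.

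Psmc3ip also separated the days and slides in wild-type and MCU-vector fibres, but not in transfected-control fibres, whose days overlapped. It had −2.25, −1.72 and −2.73 in MCU-vector fibres of day 7 and −2.32, −1.97, −1.88 and −1.41 in wild-type fibres. At day 14 it had 0.31, −0.12, 0.38 and 0.37 in MCU-vector fibres and 0.03, 0.34, 0.13 and 0.15 in wild-type fibres. Of the 3 silenced fibres of day 7, 2 lay within the range of the wild-type and MCU-vector fibres of day 7 and 1 below it, while the transfected controls of day 7 all stood above that range. Day and slide cannot be told apart in these values.

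The MCU vector and silencing differences were of opposite sign in 15 of 17 regulatory genes, positive with the vector and negative with silencing, against 6 of 14 core genes and 24.0% of all genes. On each day separately that held for 9 of 17 regulatory and 2 of 14 core genes, and for 10.0% of all genes. Over both days the regulatory count was 16 of 17 under median scaling (35.9% of all genes), 10 of 17 with the percentile over detected probes (17.6%) and 6 of 17 with the myosin covariates (20.7%). The 2 comparisons have no control in common. In the contrast of both effects Psma3 (0.55, adjusted p 0.0474 in limma) and Psmd2 (0.57, adjusted p 0.0282 in limma) were called higher, 2 of 44 genes, against 5.34% of all genes called higher and 5.86% lower. This contrast also holds the difference between the control groups. Transfected-control fibres exceeded wild-type fibres in 7 of 44 genes called, namely Psma3, Psmc5, Psmd2, Psmd13, Psme3, Psmd9 and Psmc3ip, against 10.3% of all genes called higher and 17.5% lower. Slide and group cannot be told apart there.

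The median over the 17 regulatory genes, each centred on its mean over all fibres, was 0.05, 0.04, 0.28 and 0.24 in MCU-vector fibres of day 14, against −0.35, 0.28, −0.28 and 0.05 in wild-type fibres. At day 7 it was −0.10, 0.05 and 0.09 in MCU-vector fibres, against −0.08, 0.03, −0.31 and −0.06 in wild-type fibres. In silenced fibres of day 7 it was −0.02, 0.30 and −0.30, against 0.15, 0.20, 0.28 and −0.12 in transfected-control fibres. At day 14 it was −0.27, −0.05, −0.24 and 0.26 in silenced fibres, against 0.11, −0.07, −0.11 and 0.03 in transfected-control fibres. Every pair of groups overlapped. In wild-type fibres of day 14 the subunits spread widely, and the share of probes well above background there was 52.2% in the highest fibre and 59.5% in the lowest. Without the 2 outlying wild-type fibres all 17 regulatory genes were still positive with the MCU vector, with a median of 0.20. Without silenced replicate 3 of day 7 the regulatory median of that day became 0.073, against −0.14 with it.

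**Figure D5:**
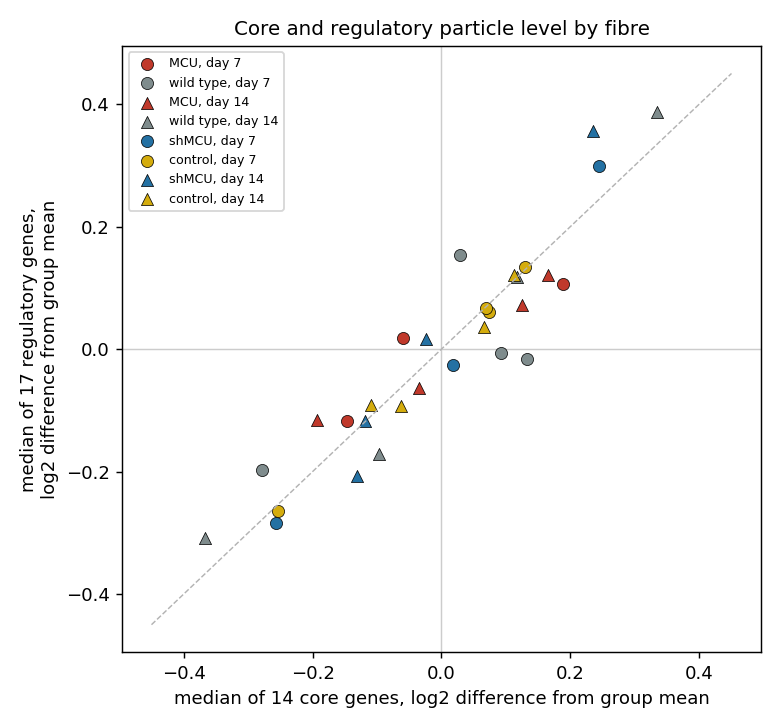
Fibre medians of the 14 core genes (horizontal) against those of the 17 regulatory genes (vertical), both as log2 differences from the group mean, with groups marked. Fibres lie close to a rising line, with a Pearson r of 0.931 over the 30 fibres.

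Core and regulatory genes varied together from fibre to fibre. After subtracting group means the median correlation over pairs was 0.727 within the core (91 pairs), 0.694 within the regulatory particle (136 pairs) and 0.671 between them (238 pairs). Their median correlation with other genes well above background on all arrays was 0.036. The 30 points share slides, amplification and scaling, so these are descriptions. Within single slides the medians lay between 0.44 and 0.90, and without the 2 fibres farthest from the median they were 0.680, 0.641 and 0.600. They also moved with the scaling. The submitters' processed values gave 0.571, 0.583 and 0.526, and median scaling 0.780, 0.754 and 0.744. The fibre medians of core and regulatory genes, also after subtracting group means, had a Pearson r of 0.931 and a Spearman rho of 0.906 (n = 30).

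Members differed in how closely they followed the other subunits, as the correlation of each gene with their median showed over 30 fibres, after subtracting group means. Psma2, Psmc2 and Psmd6 were closest, at 0.94, 0.94 and 0.93. The lid subunit Psmd3 followed least among the 31 subunits, at 0.17. Among the activators Psme4 had 0.55, Psme2 0.37, Psme1 −0.28 and Psme3 −0.51. Assembly chaperones lay between 0.31 for Psmg4 and 0.82 for Psmg2, and the inhibitor Psmf1 had 0.35. Outside the naming rule, the deubiquitinase Usp14, which docks on the regulatory base, had 0.86. Of 23254 other genes the median was 0.00 and the middle 90% ran from −0.51 to 0.70. After the same step the subunit median correlated with the share of probes detected at −0.14 over all fibres. Without the 2 fibres of most extreme detected share it was 0.005. By slide the sign changed. MCU-vector and wild-type fibres had −0.33 at day 7 and −0.75 at day 14. Silenced and transfected-control fibres had 0.36 at day 7 and 0.40 at day 14. With Myh4 the subunit median correlated at 0.29 over all fibres and at 0.25 to 0.73 by slide. With Myh1 it correlated at −0.42 over all fibres and at −0.59 to 0.19 by slide. Without the 2 fibres of most extreme myosin level these were 0.10 for Myh4 and −0.34 for Myh1.

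The members varied within groups about as much as genes well above background on all arrays. The within-group SD of the 44 genes had a median of 0.24 on the log2 scale, from 0.109 for Psme3 to 0.497 for the lid subunit Psmd8. Among genes well above background on all arrays the median was 0.25. The genes around the proteasome gave few calls with the MCU vector. Over both days Ube3c, a ubiquitin ligase that works at the proteasome, was the 1 of 10 tested partners outside the naming rule called higher (0.63, adjusted p 0.0497 in limma). Of 6 tested regulators of proteasome transcription Stat3 was called higher (0.99), and Nfe2l1, the factor that raises subunit genes when the proteasome is inhibited, was not (0.38, adjusted p 0.259 in limma). None of 17 ubiquitin and shuttle genes and none of 10 muscle ubiquitin ligases passed by limma, with 2 of each list higher at an unadjusted p below 0.05.

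Under silencing 1 of 10 muscle ligases was called higher and 1 lower. Called lower were also 3 of 6 transcription regulators, 1 of 10 partners and 1 of 17 ubiquitin and shuttle genes, against 8.00% of all genes called higher and 6.11% lower. Trim63, the muscle ligase MuRF1 that tags myofibrillar proteins, fell by 1.43 (adjusted p 1.59e-04 in limma), and Fbxo21 was higher by 0.36 (adjusted p 0.0417 in limma). The transcription factors Stat3 (−1.49), Nfe2l2 (−0.92, adjusted p 0.00397 in limma) and Foxo1 (−0.60, adjusted p 0.0157 in limma) were lower. Nfe2l1 differed by 0.03 (adjusted p 0.930 in limma). Zfand2a, a stress-induced proteasome partner, fell by 1.01 (adjusted p 0.00340 in limma), and Ube2d3, a ubiquitin-conjugating enzyme, fell by 0.27 (adjusted p 0.0280 in limma). Several of these genes also differed between the controls. Transfected-control fibres exceeded wild-type fibres by 1.66 in Trim63, 1.86 in Stat3, 1.24 in Nfe2l2 and 0.68 in Zfand2a, all called, and were lower in Fbxo21 (−0.34, called). Foxo1 (0.40) and Ube2d3 (0.12) were not called there. The macrophage marker Cd68 also differed, at −2.11 under silencing (adjusted p 0.00520 in limma) and 2.23 between transfected-control and wild-type fibres. It was the 1 of 6 tested leukocyte markers called under silencing over both days. Between the controls Adgre1 (−0.28), Csf1r (−0.01), Lyz2 (0.23), Ptprc (0.13) and Cd3e (0.03) were not called. At day 7 of silencing Adgre1 was called lower (−1.39, adjusted p 0.0471 in limma). Csf1r (0.15), Lyz2 (0.07), Ptprc (0.05) and Cd3e (0.29) were not called there. Summed leukocyte markers were 25.9 to 30.1 in silenced fibres against 26.2 to 29.3 in transfected-control fibres at day 7, and 24.1 to 27.0 against 26.4 to 31.4 at day 14. The part of leukocytes and of the control group in the differences was not tested.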

How the data were processed

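Per the file headers, the authors' scanner files were made with Agilent Feature Extraction 10.7.3.1 from single-colour arrays, and the deposited processed intensity of each spot is background-subtracted and detrended within its array, with no scaling between arrays. The deposited flags for background, saturation and outlying spots come from the same software. The submitters' deposited table of processed intensities, whose scaling between arrays is not given in the sources used here, was used as an alternative.

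Outlier-flagged and control spots were left out and replicate spots averaged. The log2 processed intensity minus the array's 75th percentile was taken. A probe entered if flagged as well above background on 3 or more arrays of some group, and where several probes of a gene entered, the one of highest mean stood for the gene. Probe names were updated by accession or symbol where RefSeq held them. Group means of the 8 groups were fitted over 30 fibres with limma 3.58.1 in R 4.3.3 (22 residual degrees of freedom), with Benjamini-Hochberg adjustment over 23341 genes. The fitting was tested on simulated data. Single fibres hold 1 cell's RNA plus what adheres to it, and the number of arrays limits the precision.

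Values per fibre are given for called genes and, in each comparison over both days, for the 3 core genes and 5 other members with the largest moderated statistics, some as ranges. The members and gene lists were chosen with earlier results of these data known. Psmb5, Psme1, Nfe2l1 and the immunoproteasome genes are named for their role. Replicate numbers did not pair fibres: correlations of same-numbered fibres ran from −0.18 to 0.19 over 14 pairs. Alternatives were other scalings, background correction, filters on dim probes, the mean of a gene's probes, array weights, covariates, a replicate block, and leaving out fibres.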

Additional observations from a re-analysis of the deposited data

Results flagged for a closer look

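Among the genes whose values are given fibre by fibre, 78 groups of 4 fibres were examined and in 8 a single fibre stood far from the other three, where chance gives about 1 in 20. Psme2 had 3.77 in transfected-control replicate 3 of day 7, and the nearest fibre of that group had 2.43. The other Psme2 probes gave 2.74 and 0.79 in that fibre. Psmd2 was lowest at 5.13 in MCU-vector replicate 1 of day 14, highest at 5.42 in wild-type replicate 2 of day 14, and lowest at 4.97 in transfected-control replicate 4 of day 7. Psmc3 was lowest at 5.99 in transfected-control replicate 1 of day 14, where the nearest fibre had 6.19. Psmc3ip was lowest at −0.12 in MCU-vector replicate 2, at −0.33 in MCU-silenced replicate 3 and at −0.74 in transfected-control replicate 3, all of day 14.

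The silencing difference of Psmc3ip differed between the days, by 2.50 for day 14 minus day 7 in a test of that difference (adjusted p 3.47e-04 in limma). The days lie on different slides, which cannot be told apart from time.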

How the results depend on the processing

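Counts of proteasome genes called were small, so a few genes moved them. With median scaling the silencing comparison called 4 genes, the contrast of both effects 4 and transfected control against wild type 20. That scaling moved the median of all genes under silencing to −0.08, against 0.04. With the percentile over probes detected on every array, silencing called 2 over both days and 2 at day 7, the contrast of effects 1 and the controls 3. Normexp correction called 3 under silencing, 4 at day 7 and 4 between the controls. The submitters' values called 3 under silencing at day 7 and 2 between the controls. Without the filter on dim probes the contrast of effects called 1. Keeping only probes detected on every array drops Psmc3ip and left 0 genes under silencing over both days, 0 at day 7 and 0 in the difference between days. Averaging probes called 1 gene, Psme2, in the difference of the MCU-vector effect between days. Array weights called 2 genes with the MCU vector and 4 in the contrast of effects. With the share of probes detected as a covariate, the MCU vector called 0 genes over both days (Psme2 0.63, adjusted p 0.0915 in limma), the contrast of effects 1 and the controls 2. With Myh4 and Myh1 as covariates the contrast of effects called 0 and the controls 11, the regulatory median under silencing became 0.19 at day 14, and its difference between days 0.23. Fitting only the groups compared called 0 genes at day 7 with the MCU vector. Leaving out both outlying wild-type fibres of day 14, chosen after seeing the data, called 0 over both days. Apart from these, the causes were not tested.

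Leaving out 1 fibre at a time gave 0 to 1 genes with the MCU vector over both days and 0 to 1 at day 7. It gave 1 to 3 under silencing over both days, 1 to 2 at day 7 and 0 to 2 at day 14. The contrast of effects ranged from 0 to 4 and the controls from 4 to 12. The regulatory median under silencing at day 7 ranged from −0.27 to 0.073. Replicate numbers did not pair the fibres; with a replicate block Psme2 at day 7 was 1.30 (adjusted p 0.00620 in limma), and the block changed no count of calls. No called difference changed sign in these settings.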
